A study of Mus musculus with 12 samples.

Results

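The comparison set kidneys of mice given the higher vesicle dose after cisplatin against kidneys of normal mice, gene by gene. Its members were the 18730 genes that passed a filter on low counts, of 45777 in the deposited table, read in 6 of the 12 libraries of the series. All mice were male, wild-type C57BL/6. The 3 libraries of the normal group came from untreated mice, which had neither cisplatin nor iMSC-EVs, the extracellular vesicles of the series. The 3 libraries of the EV400 group came from mice that had cisplatin into the peritoneum at 9 mg/kg each week for 5 cycles, and then 400 µg of iMSC-EVs into a vein every 3 days, 5 times. Their kidneys were taken 3 days after the last injection. The PBS group (3 libraries) had the same cisplatin course and 5 injections of phosphate-buffered saline, and the EV200 group (3 libraries) the same course and 200 µg of vesicles. EV400 and normal therefore differed by cisplatin, by the injections and by the vesicles together, and PBS and EV200 values are given only as a scale beside the comparison. The labels give no age, no hour of collection and no statement that the 3 biological replicates of a group were separate mice. The p-values therefore rest on the spread between samples, estimated over all 12 libraries, and not on a known number of mice.

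Cisplatin is a platinum drug that crosslinks DNA and is taken up by cells of the proximal tubule, the part of the nephron that reabsorbs most of the filtrate. Repeated doses leave injured tubule cells, immune cells and matrix between the tubules. Extracellular vesicles are membrane particles that cells release, with protein and RNA inside. The comparison asks which differences from normal remained at 400 µg, and which genes lay on the far side of normal from the PBS group.

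Total counts were 50.3 to 52.6 M per library in the normal group and 47.8 to 48.4 M in the EV400 group. The defining transcripts of kidney cell types were present in all 6 libraries, with the proximal tubule phosphate transporter Slc34a1 at 6368 to 6665 CPM (a gene's counts scaled to a common library size, adjusted for composition) in normal and 5380 to 5794 CPM in EV400. Markers of fat were at or near 0, with a sum of the 4 markers at 0.219 to 0.308 CPM in normal and 0 to 0.278 CPM in EV400, and the adrenal marker Cyp11b1 was at 0 in all 6. One library stood apart. On the first principal component of log2 CPM, which carried 43.4% of the variance over 12 libraries, EV400 3 lay at -52.2, against 1.06 and 7.93 in EV400 1 and EV400 2 and -47.9 to -39.0 in normal. On the second, with 8.44%, it lay at -51.5, while the 5 other libraries compared lay between -15.7 and 18.1. Its 10 most abundant genes held 21.8% of its counts, against 17.5 to 18.6% in the 5 others. Results that rest on it are given with and without it.

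No gene differed between EV400 and normal past the threshold. Of 18730 genes tested, 0 (0%) had a Benjamini-Hochberg adjusted p under 0.05 by edgeR's quasi-likelihood test, a test on counts that shares information on spread across genes. The smallest adjusted p was 0.176. At an unadjusted p under 0.05 there were 1308 genes (6.98%), of which 620 were higher (3.31%) and 688 lower (3.67%) in EV400. DESeq2 called 28 genes, 17 higher and 11 lower, and limma-voom with quality weights called 1481, 626 higher and 855 lower. The number of genes called therefore depended on the tool. Limma-voom weighted EV400 1 by 3.38, EV400 2 by 0.815 and EV400 3 by 0.344, so that 1 library carried most of its EV400 mean.

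The differences from normal were small for most genes. The central 50% of genes had log2 fold changes between -0.12 and 0.16, the central 90% between -0.46 and 0.77, and the median was 0.00. An absolute log2 fold change above 1 was fitted for 838 genes, against 2030 between PBS and normal. In the same fit, 514 genes differed between PBS and normal (2.74%), 345 higher (1.84%) and 169 lower (0.902%) in PBS. Between EV200 and normal 13 differed (0.0694%), 6 higher (0.032%) and 7 lower (0.0374%). These comparisons share the normal libraries.

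The 514 genes give a scale for what remained at 400 µg, as a description, since they were chosen by a contrast that holds the same normal libraries. The 345 that were higher in PBS had a median log2 fold change against normal of 1.33 in PBS, 0.95 in EV200 and 0.54 in EV400. Their median in single EV400 libraries was 0.64, 0.66 and 0.20, the lowest in EV400 3, and 0.69 without that library. The 169 that were lower in PBS had medians of -0.62, -0.32 and -0.15 in the 3 groups, with -0.23, -0.21 and -0.05 in the single EV400 libraries. Of these 514, 12 and 31 respectively had a fitted EV400 difference of opposite sign to that in PBS.

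The genes closest to the threshold are described next. Because nothing passed, these are the 20 genes with the smallest unadjusted p among named genes of at least 5 CPM in the higher group whose EV400 and normal libraries did not overlap. Absence of overlap was common: 3527 of 18730 genes (18.8%) met it, 1550 higher (8.28%) and 1977 lower (10.6%), so it is a description and not a call. Of the 20, 12 were lower and 8 higher in EV400. PBS values are set beside them below, and share the normal libraries. DESeq2 called 16 of the 20 and limma-voom 19, against 28 and 1481 of all 18730 genes. The 20 were chosen by p and by absence of overlap in the same counts. These calls and the absence of overlap given below were therefore largely set by the choice.

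Ctxn3, encoding the membrane protein cortexin 3 (chromosome 18, 57467751 to 57478134, GRCm38), had the smallest p of all genes. Its level was 7.95, 7.82 and 6.71 CPM in the normal libraries and 2.32, 3.52 and 3.38 CPM in EV400. All EV400 libraries were below all normal ones, with means of 7.49 ± 0.685 and 3.07 ± 0.661 CPM (SD, n = 3). The log2 fold change was -1.29 (SE 0.175, edgeR adjusted p = 0.176). In PBS the gene was at 3.24 to 4.07 CPM and in EV200 at 2.03 to 2.42 CPM, so that all 9 libraries from cisplatin-treated mice were below normal. Synpr, encoding synaptoporin, a vesicle membrane protein (chromosome 14, 13284780 to 13615469), had the lowest log2 fold change of the 20. It was at 10.4, 13.7 and 9.80 CPM in normal and 0.522, 1.64 and 1.32 CPM in EV400, a log2 fold change of -3.28 (SE 0.605, edgeR adjusted p = 0.488). PBS and EV200 libraries were also at 0.148 to 1.33 CPM, and no library of a treated mouse came near the normal range.

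Srd5a2 and Gusb, both linked to male sex hormone, were among the lower genes, while Prlr, on the androgen-linked list read below, was among the higher ones. Srd5a2, encoding the 5-alpha-reductase that turns testosterone into dihydrotestosterone (chromosome 17, 74014891 to 74047860), was at 54.4, 67.5 and 50.1 CPM in normal and 27.9, 38.1 and 38.0 CPM in EV400. The groups did not overlap, and the EV400 libraries lay between normal and PBS (21.9 to 25.8 CPM). Its log2 fold change was -0.73 (SE 0.153, edgeR adjusted p = 0.604), against -1.27 in PBS. Gusb, the lysosomal enzyme beta-glucuronidase, long studied as an androgen-responsive gene of the mouse kidney, was at 106, 90.2 and 94.1 CPM in normal and 57.7, 70.9 and 75.6 CPM in EV400. Unlike Srd5a2, its EV400 libraries overlapped the PBS range of 72.9 to 76.0 CPM. Another lower gene, Pzp, encodes a protease inhibitor of the alpha-2-macroglobulin family. It was at 265, 226 and 240 CPM in normal and 145, 182 and 171 CPM in EV400, again with no overlap.

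Among the higher genes, Bsnd encodes barttin, a membrane protein of the loop of Henle and distal nephron that takes part in salt transport (chromosome 4, 106483456 to 106492243). It was at 37.1, 34.8 and 36.6 CPM in normal and 45.6, 45.9 and 44.3 CPM in EV400. The groups did not overlap. Its log2 fold change was 0.32 (SE 0.0626, edgeR adjusted p = 0.562), and PBS (44.3 to 47.7 CPM) and EV200 (47.0 to 49.3 CPM) were in the same range. Stk32b, a serine/threonine kinase gene, was at 9.21, 9.11 and 9.90 CPM in normal and 13.0, 14.1 and 14.3 CPM in EV400. Mapkapk3, encoding a kinase that p38 activates, was at 11.7, 10.9 and 10.3 CPM in normal and 18.5, 16.3 and 16.4 CPM in EV400. Both had EV400 libraries above all PBS libraries as well (10.9 to 12.1 and 14.5 to 15.9 CPM). Their log2 fold changes were 0.55 and 0.64 (edgeR adjusted p = 0.249 and 0.258).

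Prlr, the prolactin receptor gene, was at 4.03, 3.10 and 3.47 CPM in normal and 9.91, 5.60 and 5.94 CPM in EV400, where the first library was well above the other 2. Gpnmb, a glycoprotein gene of macrophages and other phagocytic cells, had 0, 7 and 0 reads in the normal libraries and 596, 443 and 7 reads in EV400, so the third EV400 library was at the normal level and no fold is given. The other higher genes were Emb, a chaperone for lactate transporters, Blnk, an adaptor of B cell receptor signalling, and Cav2, a caveolin, with log2 fold changes of 0.48 to 0.65. The other lower genes were Coro2a, Msantd3, Fignl2, Kif20b, Eml5, Htt and C8a, from -0.80 to -0.38. Over all 20, the edgeR adjusted p ranged from 0.176 to 0.65.

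**Figure D1:**
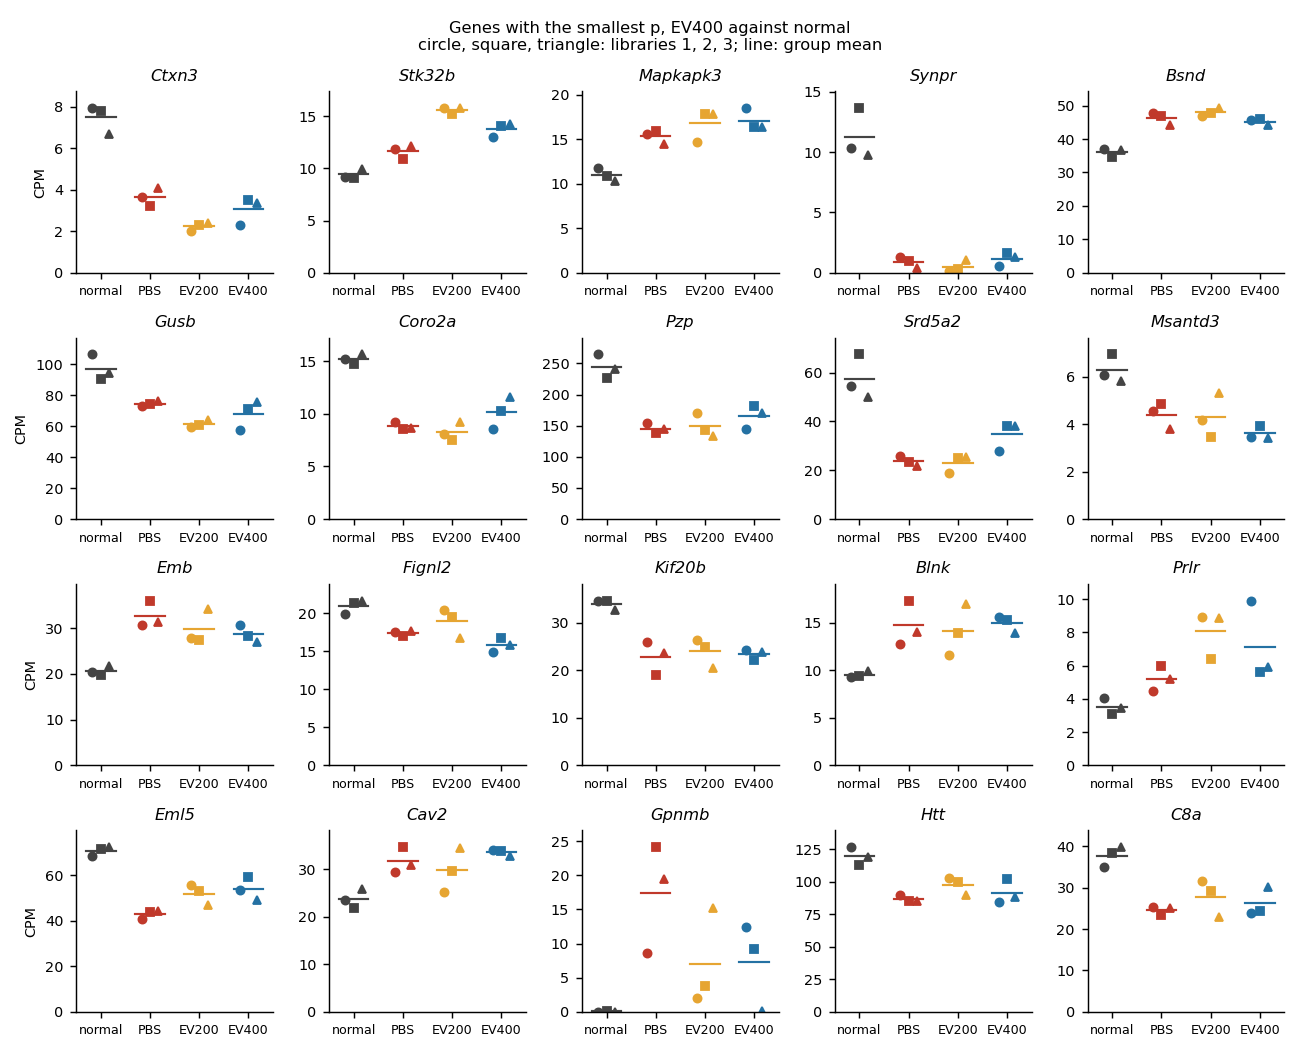
CPM of the 20 genes with the smallest p between EV400 and normal, one panel per gene with a linear axis from 0, in the 12 libraries by group. In each panel the 3 EV400 libraries lie apart from the 3 normal ones, as the choice of genes required. In Gpnmb the third EV400 library, at 0.162 CPM, lies next to the normal library at 0.144 CPM.

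The 12 injury and fibrosis genes, named for the comparison whatever their values, had a wide spread within EV400, and the third library was the lowest of the 3 in each of them. Lcn2, encoding the tubular injury marker NGAL, was at 0.339, 0.493 and 0.789 CPM in normal and 4.03, 4.95 and 0.603 CPM in EV400. Vcam1, an adhesion molecule of tubule cells that fail to repair, was at 9.35, 6.82 and 6.06 CPM in normal and 19.6, 23.3 and 6.54 CPM in EV400. In both, EV400 1 and EV400 2 were above the whole normal range and EV400 3 was within it. Krt20, Ccl2, Col1a1 and Col3a1 had the first 2 libraries above normal too, with EV400 3 within the normal range for Krt20 and below it for the other 3. Col1a1, encoding a chain of type I collagen, was at 10.9, 10.4 and 10.6 CPM in normal and 14.3, 21.6 and 5.17 CPM in EV400, a log2 fold change of 0.37 (SE 0.575).

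Fn1, encoding fibronectin, was at 28.9, 33.8 and 35.7 CPM in normal and 39.2, 56.4 and 13.1 CPM in EV400, with libraries above and below normal. Havcr1, the KIM-1 gene of injured proximal tubules, overlapped normal: 2.07, 1.33 and 1.18 CPM against 1.61, 3.75 and 1.32 CPM. Tgfb1 and Cdkn1a overlapped normal as well, with log2 fold changes of -0.06 and 0.17. For Havcr1, Col1a1, Fn1, Tgfb1 and Cdkn1a the sign of the difference turned when 1 EV400 library was left out. Only Acta2, the smooth muscle actin of myofibroblasts, and Umod, the uromodulin of the thick ascending limb, had no overlap. Acta2 was at 15.7, 17.4 and 16.6 CPM against 24.9, 23.5 and 21.1 CPM, and Umod at 1904, 2199 and 1944 CPM against 2379, 2640 and 2366 CPM. Of the 12, none passed the test (edgeR adjusted p = 0.672 to 0.972).

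**Figure D2:**
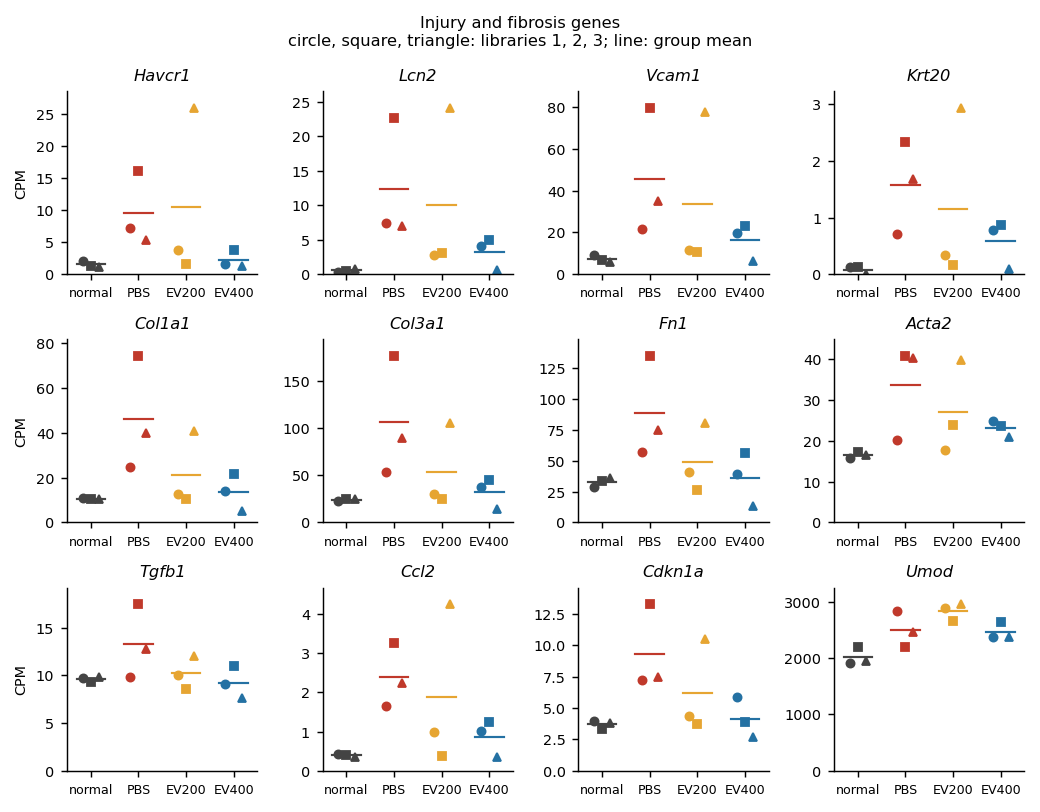
CPM of the 12 injury and fibrosis genes in each library by group, on linear axes from 0. The third EV400 library (triangle) lies below the other 2 in all 12 panels, and for Fn1 it lies at 13.1 CPM, under all normal libraries.

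A set of 35 gene lists for kidney cell types, immune cells, matrix, stress and metabolism was read next. Of their 721 genes 685 were tested, and 0 were called in either direction. Most lists named below are described by their median log2 fold change, beside a median of 0.00 for all genes. For many of them, how many members had no overlap is given too. Over all genes that share was 8.28% above normal and 10.6% below. In bulk tissue, fewer cells of a type and less RNA per cell cannot be told apart.

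The loop of Henle list held most of its members on one side in all EV400 libraries. Of 12 genes tested, 7 were above normal without overlap (8.28% of all genes), 0 were below (10.6%), and the median was 0.28. Beside Bsnd and Umod they included Kcnj1, the ROMK potassium channel, the claudins Cldn16 and Cldn19 of the paracellular magnesium and calcium path, and Casr, the calcium-sensing receptor. Cldn16 was at 4.82, 4.56 and 5.44 CPM in normal and 8.83, 7.03 and 6.63 CPM in EV400, a log2 fold change of 0.60 (SE 0.16, edgeR adjusted p = 0.65). Kcnj1 was at 127, 125 and 139 CPM in normal and 152, 157 and 161 CPM in EV400. The mean level of the list was 0.24, 0.36 and 0.22 above the normal mean on the log2 scale in the 3 EV400 libraries, and its median was 0.33 without EV400 3. The list median was 0.33 in PBS and 0.45 in EV200 against the same normal libraries. It was 0.29 in EV400 with the scaling factors of DESeq2.

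The proximal tubule list lay on the other side. Of 40 genes, 16 were below normal without overlap (10.6% of all genes) and 1, the amino acid transporter subunit Slc7a7, above (8.28%), with a median of -0.11. Megalin and cubilin, the receptors that take up filtered protein, were among the 16. Lrp2 (megalin) was at 3486, 3343 and 3058 CPM in normal and 2466, 2876 and 2333 CPM in EV400, and Cubn at 813.5, 777 and 764 CPM in normal and 596, 683 and 579 CPM in EV400. Their log2 fold changes were -0.37 (SE 0.146) and -0.34 (SE 0.125), with an edgeR adjusted p of 0.672 each. Both have long transcripts, of 15460 and 11262 bases, which bears on the pattern with length given below. The mean of the list was 0.14, 0.16 and 0.03 below normal in EV400 1, 2 and 3 on the log2 scale, and the median was -0.16 without EV400 3.

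Among 20 androgen-linked kidney genes, 9 were below normal without overlap (10.6% of all genes) and 1, Prlr, above (8.28%), with a median of -0.16. The mean of the list stood at -0.31 and -0.23 in EV400 1 and EV400 2 and at 0.03 in EV400 3, and the median without EV400 3 was -0.24. Slco1a1, an organic anion transporter, was at 780, 754 and 736 CPM in normal and 486, 550 and 669 CPM in EV400. Cyp4a12b, a fatty acid hydroxylase, was at 73.2, 68.7 and 63.6 CPM in normal and 45.6, 49.7 and 52.8 CPM in EV400. In both, EV400 3 was the library closest to normal. Kap, the kidney androgen-regulated protein gene, overlapped: 19440 to 22400 CPM in normal and 17470 to 25060 CPM in EV400. Slco1a1 and Cyp4a12b belong to multigene families, where reads of near-identical copies may be split.

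Macrophage, matrix, injury and complement lists were above the normal mean in EV400 1 and EV400 2 and below it in EV400 3. For macrophages and complement EV400 3 was still within the normal range, of -0.16 to 0.30 and -0.09 to 0.13 around that mean on the log2 scale. The injury list was just under its lowest normal library (-0.05), and the matrix list was well under its own (-0.04). The macrophage and dendritic cell list of 26 genes had the largest median, 0.85, and 25 members were above 0. Its mean was 1.84 and 1.77 above normal on the log2 scale in EV400 1 and EV400 2 and 0.13 below it in EV400 3, and 3 members were above normal without overlap (8.28% of all genes were). Lyz2, the macrophage lysozyme, was at 18.4, 9.96 and 10.7 CPM in normal and 85.6, 86.6 and 12.6 CPM in EV400. The list of 34 fibrosis and matrix genes (median 0.28) stood at 0.71 and 0.84 in the first 2 libraries and -0.53 in the third. The 30 genes of proximal tubule injury and failed repair (median 0.40) stood at 0.78, 0.82 and -0.07, and complement (median 0.29) at 0.59, 0.62 and -0.07. Without EV400 3 the 4 medians were 1.197, 0.54, 0.56 and 0.59, and 0 genes were called. Above normal without overlap were 2 of the 34 matrix genes, 6 of the 30 injury genes and 1 of the 20 complement genes (8.28% of all genes). Below it were 1, 1 and 0 (10.6%). Lymphocyte and granulocyte lists had other patterns. T and natural killer cell genes (22, median 0.63, or 0.85 without EV400 3) stood at 0.61, 0.77 and 0.25. The 4 neutrophil and mast cell genes tested, of 14 listed, stood at 0.81, 0.57 and 0.84 (median 0.79, or 0.61). Among these 4, S100a8 had 10, 5 and 0 reads in normal and 15, 10 and 15 in EV400. S100a9 had 5, 13 and 8 reads against 10, 7 and 37. Counts this low support no fold, so the level of this list is no reading of granulocytes. B and plasma cell genes (12, median 0.17, or 0.32) stood at 0.18, 0.60 and -0.08. Of the 22 T and natural killer cell genes, 5 were above normal without overlap and 1 below. Those counts were 1 and 0 for the 4 neutrophil and mast cell genes and 3 and 1 for the 12 B and plasma cell genes.

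Some members of these lists were nonetheless apart from normal in all 3 libraries. Spp1, encoding osteopontin, was at 335, 265 and 354 CPM in normal and 494, 597 and 385 CPM in EV400. Krt18, an epithelial keratin, was at 6.58, 6.26 and 6.68 CPM in normal and 10.8, 10.6 and 9.44 CPM in EV400, and Prom1 at 41.7, 41.7 and 49.2 CPM against 66.4, 64.0 and 55.2 CPM. The T cell receptor subunit gene Cd3d was at 0.219, 0.185 and 0.291 CPM in normal and 0.668, 0.601 and 0.649 CPM in EV400, with the 3 EV400 libraries close together. Itgb6, the epithelial integrin that activates latent TGF-beta, went the other way, from 107, 113 and 89.9 CPM in normal to 81.8, 68.7 and 62.4 CPM in EV400 (log2 fold change -0.54, SE 0.131, edgeR adjusted p = 0.65). The PBS libraries were above that range, at 101 to 135 CPM.

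Several lists had medians near 0. The median was 0.07 for interferon-stimulated genes (0.16 without EV400 3) and 0.00 for the nuclear-encoded respiratory chain (-0.06 without EV400 3, whose own level was 0.17 above normal). It was -0.03 for fatty acid oxidation, -0.04 for the unfolded protein response, -0.05 for p53 targets and 0.01 for endothelium. Proliferation genes had a median of -0.10 (-0.06 without EV400 3), with 4 of 25 below normal without overlap against 10.6% of all genes, among them Cdk1 and Plk1, at 0.556 to 0.981 CPM in EV400 and 0.934 to 1.52 CPM in normal. Other lists were further from 0: fibroblasts, pericytes and myofibroblasts had a median of 0.32 (0.51 without EV400 3) and podocytes 0.27 (0.39). The 4 adrenal genes tested, of 14 listed, had a median of 0.42 (0.62). They were Star, Fdx1, Hsd3b1, with 8 to 11 reads in normal and 8 to 18 in EV400, and Akr1b7, which also marks renin cells. Their median is therefore no reading of adrenal tissue. Of the 20 fibroblast, pericyte and myofibroblast genes, 6 were above normal without overlap (8.28% of all genes) and 1 below (10.6%). Of the 16 podocyte genes, 2 were above and 2 below. Intercalated cell genes had a median of 0.07, with 4 of 14 above and 0 below. Urothelial genes had a median of 0.49 over 14 members (0.73 without EV400 3), and the summed level of 4 markers was 0.996 to 1.93 CPM in normal and 1.04 to 2.52 CPM in EV400. Erythroid markers summed to 471 to 580 CPM in normal and 436 to 722 CPM in EV400, the highest in EV400 3. The part of blood or urothelial tissue in these samples in any difference was not tested.

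**Figure D3:**
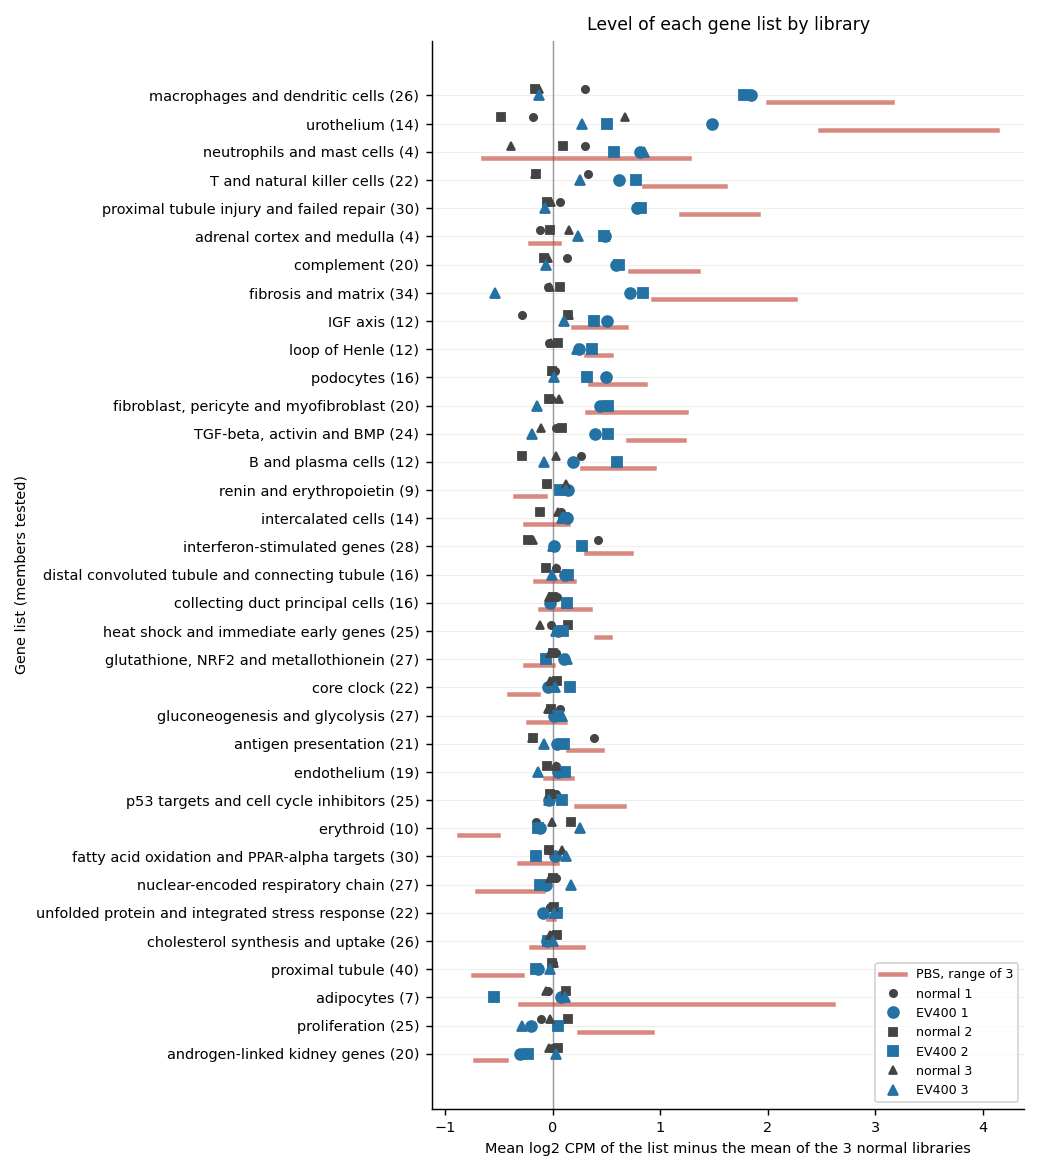
Mean log2 CPM of each of 35 gene lists in each library minus the mean of the 3 normal libraries, with the number of members tested in brackets and the range of the PBS libraries as a bar. Macrophage, fibrosis and injury lists lie between 0 and the PBS bars in EV400 1 and EV400 2 and at or below 0 in EV400 3, while the loop of Henle list lies at 0.22 to 0.36 in all 3.

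The genes past normal were read from the order of the libraries. In 61 genes (0.326%) all normal libraries lay above all PBS libraries and below all EV400 libraries, and in 87 (0.464%) the order was the reverse. For comparison, PBS and EV400 both lay above normal without overlap in 846 genes (4.52%) and both below in 844 (4.51%). The orders share the normal libraries and are descriptions, and no gene of either kind passed the test against normal. With a library left out, fewer libraries have to lie apart, so a rise in these counts is built in, but its size differed. Without EV400 2 the 61 and 87 became 336 and 331, and without EV400 1 they became 120 and 129. Without EV400 3 they became 81 and 112, while the 846 and 844 became 2123 and 2050.

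A second reading comes from EV400 against PBS, where 15 genes passed (0.0801%), 9 higher (0.0481%) and 6 lower (0.032%) in EV400 by edgeR adjusted p, with 4403 at an unadjusted p under 0.05 (23.5%). DESeq2 called 877 genes and limma-voom 2731, and both included all 15. With 1 library left out, 0 genes were called without EV400 1 or without EV400 2, 1 without EV400 3, 1 each without PBS 1 or PBS 2, and 26 without PBS 3. Of the 15, 5 belong to the circadian clock list of 22 genes and 6 had no overlap with normal on the far side: Arntl, Npas2, Slc16a1 and Banp below it and Ren1 and Trdn above it. Over all genes, 0.464% had the first order and 0.326% the second. The 15 were chosen for a difference between EV400 and PBS, so such an order is in part built into the choice and is only a description. Trdn, encoding the muscle protein triadin, was at 1.58 to 2.82 CPM in normal and 3.50 to 4.87 CPM in EV400. These genes and those below were chosen after their values were seen.

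Ren1, the gene of renin, the kidney enzyme that starts the angiotensin cascade, was one of the genes above normal (chromosome 1, 133350674 to 133360320). It was at 30.9, 39.4 and 32.2 CPM in normal, 26.0, 18.6 and 22.99 CPM in PBS and 56.2, 65.4 and 50.6 CPM in EV400. The 3 groups did not overlap, and EV400 had the highest values. EV200 was spread over the whole normal range and beyond, at 23.8, 31.7 and 46.1 CPM. Against PBS, Ren1 rose by a log2 fold change of 1.35 (SE 0.212, edgeR adjusted p = 0.0493). It no longer passed with the replicate number as a block or with the length trend removed. Against normal the log2 fold change was 0.75 (SE 0.209, edgeR adjusted p = 0.655), with means of 57.4 ± 7.48 and 34.2 ± 4.54 CPM (SD, n = 3). Other genes of the renin system did not share the order: Ace, the angiotensin-converting enzyme, was at 396 to 482 CPM in normal and 305 to 375 CPM in EV400, and Agt, the renin substrate, overlapped at 42.0 to 52.6 and 41.8 to 48.0 CPM. Akr1b7, an aldo-keto reductase gene that marks renin cells, was at 1.59, 1.09 and 1.47 CPM in normal and 3.09, 2.51 and 2.62 CPM in EV400, with PBS at 1.39 to 2.05 CPM.

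The Ren1 promoter is shown because this gene passed against PBS and lay past normal. The 250 bases before its start (chr1:133350424-133350673, plus strand, GRCm38.p6, from RefSeq) hold one TATAAA, in capitals, which 13.6% of 32851 RefSeq windows of 300 bases around a gene's start hold on either strand.
Ren1: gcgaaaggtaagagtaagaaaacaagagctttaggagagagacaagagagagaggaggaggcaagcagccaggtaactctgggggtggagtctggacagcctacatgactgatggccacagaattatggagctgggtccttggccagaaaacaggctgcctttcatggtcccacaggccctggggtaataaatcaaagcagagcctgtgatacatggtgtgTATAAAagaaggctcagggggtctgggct

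Other named genes lay above normal in the same order. Ces1g, a carboxylesterase of a multigene family whose reads may be shared with its relatives, was at 75.7, 103 and 86.4 CPM in normal, 37.0 to 74.6 CPM in PBS and 140, 163 and 166 CPM in EV400. Its log2 fold change against normal was 0.82 (SE 0.26, edgeR adjusted p = 0.656). Wee1, a kinase gene that holds cells before mitosis and is a known clock output, was at 13.5 to 15.8 CPM in normal and 17.2 to 22.1 CPM in EV400. Nampt, the enzyme that recycles nicotinamide to NAD, was at 136 to 138 CPM in normal and 151 to 187 CPM in EV400. Nox4, the main NADPH oxidase of the tubule, was at 333 to 371 CPM in normal and 391 to 433 CPM in EV400. Wdr36, Rpl3 and Pdgfc differed by a log2 fold change of 0.17 to 0.22.

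Slc16a1 and Banp lay below normal in the reverse order, as did the clock genes Arntl and Npas2 described next. Slc16a1 encodes MCT1, a carrier of lactate and ketone bodies (chromosome 3, 104638664 to 104658462). Levels were 28.9, 30.5 and 30.8 CPM in normal, 49.95, 36.6 and 34.0 CPM in PBS and 21.99, 21.0 and 19.1 CPM in EV400. The 3 groups did not overlap. Against PBS the gene fell by 0.96 on the log2 scale (SE 0.147, edgeR adjusted p = 0.0493), a call lost with the length trend removed, and against normal its log2 fold change was -0.54 (SE 0.147, edgeR adjusted p = 0.652). EV200 libraries were below normal as well, at 19.6 to 27.1 CPM. Banp, encoding a nuclear DNA-binding protein, was at 12.8, 11.2 and 8.68 CPM in normal, 15.5 to 16.3 CPM in PBS and 7.66, 8.10 and 4.87 CPM in EV400. Nid2, the basement membrane protein nidogen 2, was at 20.6 to 21.5 CPM in normal and 13.9 to 20.1 CPM in EV400. Rflnb, Aff1, Zfp236, Cep164 and Fbrs differed by log2 fold changes of -0.35 to -0.21.

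Clock genes were 5 of the 15 genes that passed against PBS. In the clock, ARNTL pairs with CLOCK or NPAS2 and drives the Per, Cry and Ciart genes through E-boxes, while DBP, TEF and HLF act through D-boxes and the ROR and REV-ERB receptors act on Arntl. Genes of the first kind and genes they drive peak at opposite times of day in the kidney. Since the labels give no hour of collection, a difference in hour and a difference between groups cannot be told apart. Arntl (chromosome 7, 113178471 to 113314126) was at 3.27, 3.18 and 3.26 CPM in normal, 16.2, 10.5 and 7.33 CPM in PBS and 2.15, 2.53 and 1.16 CPM in EV400. Npas2 (chromosome 1, 39193702 to 39363240) was at 3.31, 4.02 and 3.74 CPM in normal, 13.6, 8.77 and 5.31 CPM in PBS and 2.36, 1.68 and 1.21 CPM in EV400. For both, the 3 groups did not overlap and EV400 was lowest.

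Against normal, the log2 fold changes were -0.73 for Arntl (SE 0.327) and -1.07 for Npas2 (SE 0.336), with edgeR adjusted p of 0.708 and 0.656. Against PBS both fell, by 2.53 and 2.39 on the log2 scale (edgeR adjusted p = 0.0336 and 0.0371). Clock itself was at 62.7, 54.5 and 57.8 CPM in normal and 49.5, 49.7 and 43.9 CPM in EV400, again below normal in all libraries. Among the genes of the opposite phase, Dbp was at 87.1, 90.2 and 84.4 CPM in normal and 102, 107 and 137 CPM in EV400, with PBS at 15.1 to 52.6 CPM. Nr1d1, the gene of REV-ERB-alpha, lay on the other side of normal by fitted value and overlapped it, at 94.0 to 109 CPM in normal and 58.9 to 97.1 CPM in EV400. Per1, Per2, Tef and Hlf overlapped normal too. Ciart, which represses ARNTL and CLOCK, was at 10.5, 9.92 and 8.78 CPM in normal and 10.01, 14.3 and 16.3 CPM in EV400, an overlap through 1 library. Per3 and Cry2, which rose against PBS by log2 fold changes of 1.05 and 0.96 (edgeR adjusted p = 0.0493 and 0.0336), overlapped normal as well. Over the 22 genes, 5 were above normal without overlap (8.28% of all genes), 4 were below (10.6%), and the median was 0.14.

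Promoter sequences of 3 of the clock genes that passed against PBS are shown with the letters that clock factors are known to read: CACGTG (E-box), TTATGTAA (D-box) and TAGGTCA (core of the ROR element), searched on both strands and marked in capitals. All 32851 RefSeq windows of 300 bases (GRCm38.p6) were searched, and 7.15% held the E-box, 0.938% the D-box and 2.61% the ROR core. Of 18 clock genes of the list with a window, 5, 1 and 2 held them in any of their windows. These are counts of genes, which may have several windows, and are not on the scale of the shares of windows. Arntl is shown as the last 30 bases of a window (chr7:113207531-113207560, plus strand) chosen because it held a match. Another Arntl window, chr7:113207215-113207514, held none of the 3 motifs. Ciart (chr3:95882229-95882478, minus strand) and Per3 (chr4:151044666-151044915, minus strand) are shown as the 250 bases before the start.
Arntl: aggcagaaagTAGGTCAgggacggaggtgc
Ciart: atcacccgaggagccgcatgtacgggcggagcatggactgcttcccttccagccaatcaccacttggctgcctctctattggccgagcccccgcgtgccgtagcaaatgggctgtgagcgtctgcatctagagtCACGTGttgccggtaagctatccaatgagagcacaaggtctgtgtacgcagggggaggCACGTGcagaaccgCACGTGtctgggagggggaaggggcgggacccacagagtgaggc
Per3: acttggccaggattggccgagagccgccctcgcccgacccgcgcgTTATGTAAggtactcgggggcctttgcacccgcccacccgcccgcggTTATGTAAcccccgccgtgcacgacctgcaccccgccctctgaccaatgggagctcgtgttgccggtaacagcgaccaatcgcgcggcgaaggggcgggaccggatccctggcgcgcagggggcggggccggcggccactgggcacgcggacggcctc
Ciart held 3 E-boxes and Per3 held 2 D-boxes, while the windows of Npas2 and Cry2 held none of the 3 motifs. A match is a description of the letters, and binding was not measured.

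Aak1 and Gm38495 also passed between EV400 and PBS, but the second symbol is an older name of the first in RefSeq. Aak1, a kinase of clathrin adaptors, was at 97.9 to 102 CPM in normal, 26.0 to 46.6 CPM in PBS and 83.7 to 102 CPM in EV400, and Gm38495 at 0 to 0.893, 40.6 to 72.4 and 0.0415 to 0.927 CPM. Their sum overlapped between all groups, at 97.9 to 103, 87.2 to 98.4 and 84.6 to 102 CPM. Normal and PBS overlapped through 1 library, PBS 2. The share of reads given to each of the 2 models therefore differed in PBS libraries. Whether this came from the counting or from the transcripts was not tested. The other genes that passed overlapped normal in EV400. Nat8f5, an acetyltransferase family gene of the tubule whose relatives are near-identical, was at 51.0 to 56.2 CPM in normal and 42.3 to 66.0 CPM in EV400. Fmo2, a flavin monooxygenase gene, was at 395 to 418 CPM against 409 to 476 CPM, and Ypel2 at 11.1 to 11.9 CPM against 9.39 to 11.7 CPM. Gm10384 overlapped through 1 library, at 0.976 to 1.53 CPM against 1.48 to 3.13 CPM, with a log2 fold change against normal of 0.75 (SE 0.356).

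**Figure D4:**
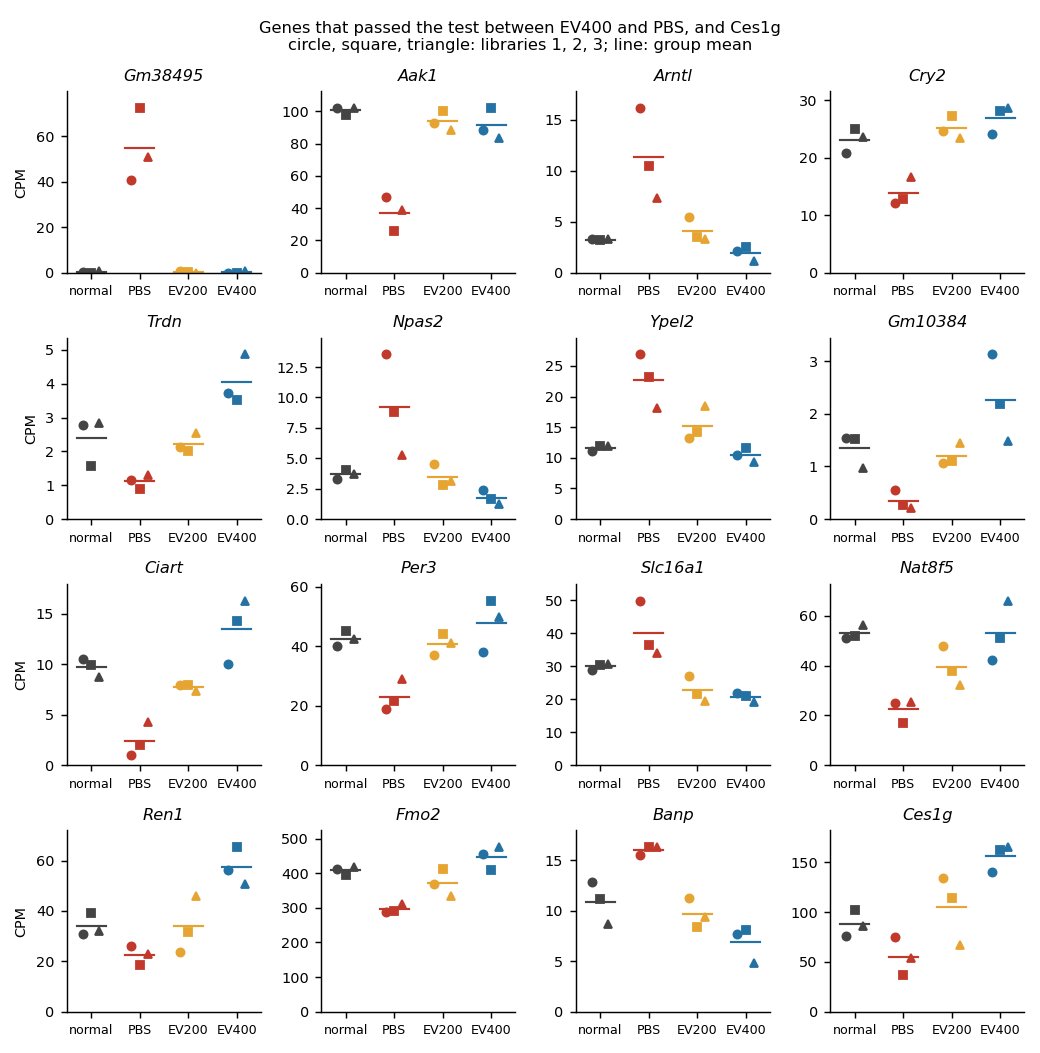
CPM of the 15 genes that passed the test between EV400 and PBS, and of Ces1g, in each library by group, on linear axes from 0. Ren1, Trdn and Ces1g have all EV400 libraries above all normal and PBS ones, while Arntl, Npas2, Slc16a1 and Banp have them below.

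Compared with the lower dose, 1 gene of 18730 (0.00534%) passed between EV400 and EV200, with 1187 at an unadjusted p under 0.05. This was the provisional model LOC115488616, at 0 in all EV200 libraries and 0.477 to 0.580 CPM in EV400, where normal libraries were at 0.399 to 0.540 CPM. A p that misses the threshold does not show that the doses act alike.

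The differences from normal also went with transcript length. Among 10755 genes of at least 5 CPM with a known transcript length, the share below normal without overlap was 6.55%, 10.7%, 15.6% and 22.9% in 4 equal groups from short to long, the last with a longest transcript of 4974 bases or more. The median log2 fold change was 0.02 in the shortest group and -0.07 in the longest. Single libraries differed: EV400 3 went from 0.13 above the normal mean in the shortest group to 0.15 below it in the longest, EV400 1 from -0.01 to -0.08 and EV400 2 from -0.07 to -0.01. In PBS the median log2 fold change against normal ran the other way, from -0.16 in the shortest group to 0.05 in the longest. PBS 2 went from -0.35 to 0.15, PBS 3 from -0.12 to 0.01 and PBS 1 from -0.05 to -0.01. The genes past normal on the low side had a median longest transcript of 4709 bases and those on the high side 2333 bases, against 3496 for all. The part of these opposite length patterns in that order was not tested. Among the named genes with the smallest p, the median was 4221.5 bases for the 12 lower and 3579.5 bases for the 8 higher. The 12 lower ranged from 1441 bases for Ctxn3 to 13215 bases for Htt. Srd5a2, also lower, had 1605 bases, and Ren1 had 1592. With the length trend of each library removed, 0 genes were called against normal, the median became 0.29 for the loop of Henle list, -0.12 for proximal tubule and 0.86 for macrophages, and Aak1, Ciart, Slc16a1, Ren1 and Banp no longer passed against PBS. The part of RNA quality in the length pattern was not tested.

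**Figure D5:**
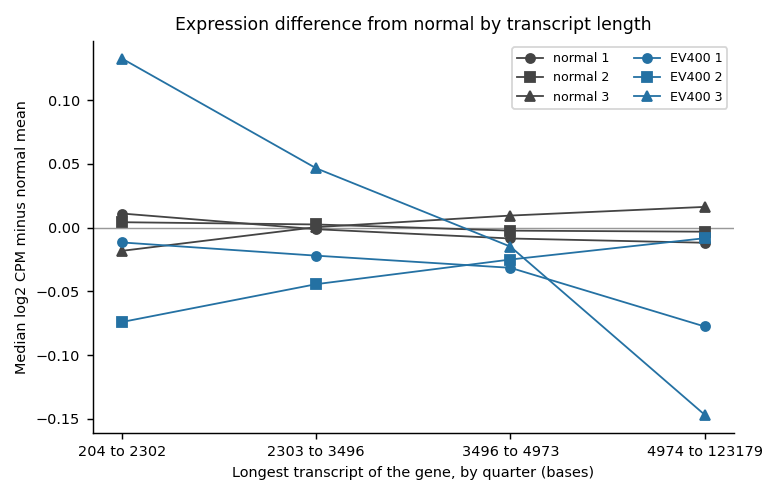
Median log2 CPM minus the normal mean in 4 equal groups of genes by transcript length, for the 3 normal and 3 EV400 libraries. The normal lines stay near 0, and EV400 3 goes from 0.13 in the shortest group to -0.15 in the longest.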

How the data were processed

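Bulk RNA-seq libraries of mouse kidney were made with a strand-marking poly(A) kit and read as pairs of 101 bases (labels' protocols). The submitters' processing notes name the tools HISAT2 2.1.0, StringTie 2.1.3b, Trimmomatic 0.38 and FastQC 0.11.7, with the builds GRCm38 and mm10. Which program counted reads, with which strand option and gene models, is not given in the sources used here, so genes that overlap may share reads. The authors deposited raw counts for 45777 genes, of which 17340 were at 0 in every library, and these were used unchanged. A further 24 columns of FPKM and TPM were not used.

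All 12 libraries entered 1 quasi-likelihood fit of edgeR 4.0.16 in R 4.3.3, with TMM factors and edgeR's default filter for the 4 groups, leaving 8 degrees of freedom. Genes with a Benjamini-Hochberg adjusted p under 0.05 were called. The standard error is the absolute log2 fold change divided by the square root of F. The script was tested on simulated data. Alternatives were DESeq2 1.42.0, limma 3.58.1 (voom), DESeq2 size factors in edgeR, no filter or a stricter one, a replicate block, the 6 libraries alone, a minimum log2 fold change of 1, summed Aak1 models and leaving out each library. Removing the length trend, and every alternative for EV400 against PBS, were chosen after seeing the data. Replicate numbers did not pair the samples. Replicates of a group differed by far more than counting noise.

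By rule, genes were named if called, and, with fewer than 12 called, the 20 with the smallest p as defined in the results, besides 12 injury genes. Members, lists and tests were chosen with earlier results of these data known. Coordinates are from RefSeq (GRCm38.p6), where 45679 gene IDs were found. Transcript lengths came from GENCODE vM21 for 81.0% of tested genes. One gene of the loop of Henle list is not reported here.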

Additional observations from a re-analysis of the deposited data

How the results depend on the processing

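EV400 against normal gave 0 calls under every alternative run with edgeR: the scaling factors of DESeq2, no filter, a stricter filter, the 6 libraries alone, a minimum log2 fold change of 1, summed Aak1 models, the length trend removed and each library left out (848 to 1606 genes at an unadjusted p under 0.05). With the replicate number as a block it gave 0 calls as well, with 1173 at an unadjusted p under 0.05 and a smallest adjusted p of 0.355. Same-numbered EV400 and normal libraries had correlations of their deviations of -0.0098 to 0.0158, so the numbers do not pair them. DESeq2 called 28 genes, 27 on the PBS side of normal and 1 past it, and limma-voom 1481, 1355 and 126. Here the side was set by the sign of the fitted PBS difference from normal. The classes by order of the libraries in the results are stricter, so the counts are not on the same scale. The cause was not tested.

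For EV400 against PBS, with 15 calls, DESeq2 gave 877, limma-voom 2731, the replicate block 10 (9 of the 15, lost were Ypel2, Ciart, Nat8f5, Ren1, Fmo2 and Banp) and the length correction 10. Leaving out 1 library gave 0 to 26.

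Signs turned for genes near 0: Per3 (-0.027) and Nat8f5 (-0.23) with limma-voom, Nat8f5 (-0.00178) with the block, and Aak1 (0.0349) and Nat8f5 (-0.0403) with the length trend removed. With 1 library left out the log2 fold change ranged from -0.17 to 0.16 for Nat8f5, -3.23 to 0.83 for Gm38495, -0.15 to 0.42 for Cdkn1a, -0.0633 to 0.84 for Havcr1, -0.13 to 0.77 for Col1a1, -0.32 to 0.56 for Fn1 and -0.20 to 0.0803 for Tgfb1. The other genes among the 20 with the smallest p, the 12 injury genes and the 15 called against PBS kept their sign under the alternatives above. With 3 libraries a group and 1 EV400 library apart, a difference that misses the threshold is not shown to be absent. Counts under about 10 reads, as for Gpnmb in normal, support no fold.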
